A study of Homo sapiens with 6 samples.

Results

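The 161 well-expressed long noncoding RNA (lncRNA) genes of SK-MEL-28 melanoma cells were selected on measured values: genes that the count table types as lincRNA, lncRNA, antisense, processed_transcript or sense_intronic, with a mean CPM (counts per 1e6 counts of the library) of at least 10 over 6 libraries. They were 161 of 14079 genes of these types and of 60504 genes in the table. Of the 161, 60 were antisense (transcribed opposite another gene), 57 were lincRNAs (between genes), 43 were processed transcripts and 1 was sense intronic. In a later annotation, GENCODE 44, 156 are lncRNA genes, 1 (HCG22) is protein-coding and 4 (AC087481.3, RMRP, TNRC6C-AS1 and AC083843.2) have no entry.

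lncRNAs are transcripts without a long open reading frame. Some build nuclear bodies, some serve as the precursors of small nucleolar RNAs (snoRNAs) or microRNAs, and others affect the expression of genes next to them on the chromosome, so position matters for this class. Several are expressed mainly in cells of the melanocyte lineage, and the transcripts of many are retained in the nucleus.

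The cells, a long-established line grown from a human melanoma, were transfected with a plasmid in all 6 libraries. The 3 labelled EV had the empty vector and the 3 labelled HDAC8 a plasmid that expresses HDAC8, with replicates numbered 1 to 3 in each group, and both kinds of cells were kept in hygromycin. HDAC8 is a class I histone deacetylase, an enzyme that removes acetyl groups from proteins, and the comparison asked which transcripts differ when it is expressed. The sources do not say whether the transfected cells are 1 clone or a pool, or whether replicates are separate cultures, so p-values measure the spread between these libraries only.

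Each library held 20850018 to 29822917 counts, so 3 counts correspond to 0.101 to 0.144 CPM, a floor that covers counting error only. All 161 members were tested, and the lowest count of any member in any library was 57. The melanoma markers MITF, SOX10, PMEL, MLANA, TYR and DCT lay between 65.6 and 5590 CPM in all libraries, the 3 keratinocyte markers were at or below 0.202 CPM and the 3 endothelial markers at or below 3.08 CPM. The fibroblast list reached 52.7 CPM and the leukocyte list 27.8 CPM. HDAC8 itself was at 16.6, 15.2 and 11.8 CPM in the EV libraries and at 14.2, 15.2 and 13.5 CPM in the HDAC8 libraries. The levels of HDAC8 overlapped (log2 fold change -0.02, standard error 0.13, edgeR adjusted p = 0.924), so each direction below is that of the libraries labelled HDAC8 over the libraries labelled EV.

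A pair of libraries stood apart from the others in their groups, EV 2 and HDAC8 3. In 51 of 161 members (31.7%) the highest EV level was in EV 2 and the highest HDAC8 level in HDAC8 3, against 9.06% of 9468 protein-coding genes at 10 CPM or more. NEAT1, the scaffold of nuclear paraspeckles, was 0.98 log2 units higher in EV 2 than in the mean of EV 1 and EV 3, and 1.21 log2 units higher in HDAC8 3 than in the mean of HDAC8 1 and HDAC8 2. RN7SL1, the RNA of the signal recognition particle, took 1.2% and 1.59% of the counts in those libraries and 1.79% to 2.67% in the other 4. These values are from libraries within a group, and their part in the results below was not tested except by leaving the libraries out.

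**Figure D1:**
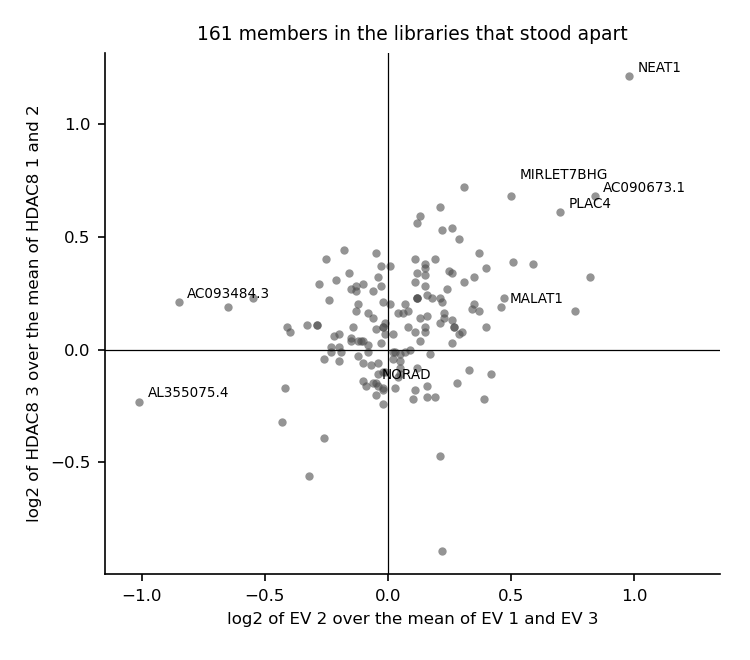
Each point is 1 of the 161 members. The horizontal axis gives the log2 ratio of library EV 2 to the mean of EV 1 and EV 3, and the vertical axis the log2 ratio of HDAC8 3 to the mean of HDAC8 1 and HDAC8 2. NEAT1 lies at 0.98 and 1.21, the farthest to the upper right, and AL355075.4 lies lowest on the horizontal axis.

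A member was called when edgeR's quasi-likelihood test gave a p below 0.05 after Benjamini-Hochberg adjustment over the 16195 genes tested, and the log2 fold change was at least 0.58 in size. Of the 161 members 22 were called (13.7%), with 11 higher and 11 lower under the HDAC8 label. Over all tested genes the share was 7.52% (4.07% higher and 3.45% lower), and over protein-coding genes at 10 CPM or more it was 5.01% (2.59% higher and 2.42% lower). With sets of members that have identical counts taken once, 11 higher and 9 lower remained of 158, or 12.7%. By the adjusted p alone, 46 members passed, 29 higher and 17 lower (28.6%), beside 22.7% of all tested genes and 30.1% of protein-coding genes at this level. The 2 groups did not overlap in 60 members (37.3%), against 38% of all tested genes and 45.9% of those protein-coding genes. The median log2 fold change of the members was 0.01, as over all tested genes, and their median size of change was 0.18, against 0.19 for all tested genes and 0.14 for the protein-coding genes. Since the members were chosen on their mean level over all 6 libraries, 7 met 10 CPM only in the EV mean, 9 only in the HDAC8 mean and 145 in both. Called members are among these one-sided ones. AL596330.1, AL365181.3, LINC01234, AC024896.1 and GSEC met 10 CPM only in the HDAC8 mean. SAMMSON, LINC02099, AL035665.1 and FAM225A met it only in the EV mean. They entered through the group in which they were high, so the shares called, here and by type, depend in part on the rule.

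The calls were spread unevenly over the types. Among lincRNAs 5 were higher and 10 lower of 57 (26.3%), among antisense genes 6 were higher and 0 lower of 60 (10%), and among processed transcripts 0 were higher and 1 was lower of 43 (2.33%). At an unadjusted edgeR p below 0.05, 28 lincRNAs (49.1%), 18 antisense genes (30%) and 14 processed transcripts (32.6%) passed, beside 33.7% of all tested genes. DESeq2 called 5 lincRNAs higher and 7 lower, 6 antisense genes higher and 0 lower, and 0 processed transcripts higher and 1 lower. The share of all tested genes that DESeq2 called is not given, so these counts have no background beside them. Of the 10 lincRNAs called lower by edgeR, 3 are the FP copies with identical counts. The difference between types was not tested, since the lists were chosen with these results known. In bulk RNA, fewer cells that carry a transcript and less transcript per cell cannot be told apart.

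**Figure D2:**
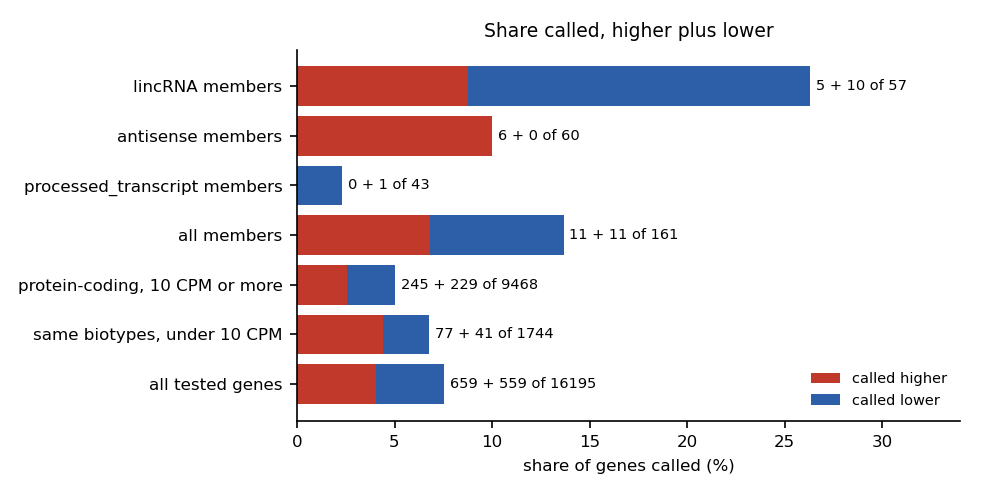
Bars give the share of genes called higher (red) and lower (blue) in the libraries labelled HDAC8, in percent, with the counts beside each bar. lincRNA members have the longest bar at 26.3%, and protein-coding genes at 10 CPM or more stand at 5.01%.

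**Figure D3:**
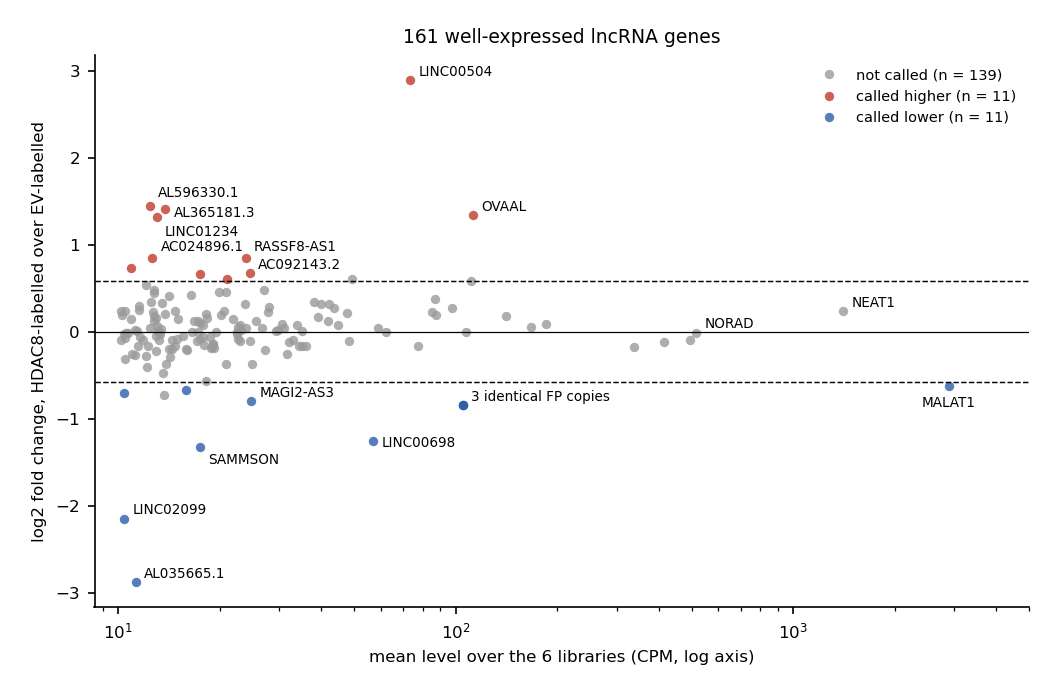
Each point is a member, with its mean CPM over the 6 libraries on a log axis and its log2 fold change on the vertical axis. Dashed lines mark the fold threshold of 0.58 in either direction. Members with the largest changes lie both at low levels (AL035665.1) and at intermediate levels (LINC00504).

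Among the RNAs known from melanoma, 22 symbols were listed and 5 were members: SAMMSON, PVT1, LINC00520, LINC01234 and OVAAL. The others were below 10 CPM (10), of another type (1) or had no row under that symbol (6). SAMMSON and LINC00520 fell, LINC01234 and OVAAL rose, and PVT1 did not pass. Thus 4 of the 5 passed the adjusted p (80%), beside 22.7% of all tested genes. The same 4 were called, beside 7.52% of all tested genes. SAMMSON averaged 9.9 CPM in HDAC8 libraries and LINC01234 7.45 CPM in EV libraries. Both met 10 CPM only through the group in which they were high, so these shares depend in part on the rule. The list was chosen with earlier results known, and it was not tested as a set. The list's log2 fold changes ran from -1.33 to 1.34 with a median of -0.29, so it did not move one way.

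SAMMSON is a lincRNA of the melanocyte lineage that is a target of SOX10 and that melanoma cells need for growth. It lies on chromosome 3 from 69999550 to 70518064 of GRCh38 on the plus strand, 31.2 kb from the end of MITF, the lineage's master transcription factor. Its levels were 25.8, 26.6 and 22.3 CPM in the EV libraries and 9.24, 8.74 and 11.7 CPM in the HDAC8 libraries. Every HDAC8 library lay below every EV library. SAMMSON fell by 1.33 on the log2 scale (standard error 0.12, edgeR adjusted p = 1.13e-05). Its neighbour and its regulator were also compared: MITF averaged 947 CPM in EV and 859 CPM in HDAC8 libraries (log2 fold change -0.14, edgeR adjusted p = 0.0263), and SOX10 was at 673 ± 38.8 CPM (SD, n = 3) against 791 ± 21.95 CPM (log2 fold change 0.23, edgeR adjusted p = 0.00463).

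LINC00520 lies on chromosome 14 between KTN1 and PELI2. It was at 20.7, 18.97 and 18.8 CPM in EV and at 13.8, 11.7 and 11.1 CPM in HDAC8 libraries, without overlap. It fell by 0.67 (standard error 0.11, edgeR adjusted p = 0.00082). PVT1, which lies beside MYC, was at 14.8, 16.7 and 15.3 CPM in EV and at 10.02, 13.9 and 14.5 CPM in HDAC8 libraries. The groups of PVT1 did not overlap, yet the difference did not pass (log2 fold change -0.29, edgeR adjusted p = 0.164).

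OVAAL, named for its amplification in ovarian adenocarcinoma, lies on chromosome 1 from 180509380 to 180566523, 6.4 kb from ACBD6. Its levels were 65.0, 61.7 and 64.8 CPM in EV libraries and 163.0, 165.8 and 157.0 CPM in HDAC8 libraries. The spread within each group was small beside the gap between them. OVAAL rose by 1.34 (standard error 0.05, edgeR adjusted p = 5.86e-09), while ACBD6 had a log2 fold change of -0.05 (edgeR adjusted p = 0.797) and XPR1 on its other side 0.07 (edgeR adjusted p = 0.452). LINC01234, on chromosome 12 next to RBM19, was at 6.87, 8.45 and 7.04 CPM in EV and at 19.5, 19.1 and 17.3 CPM in HDAC8 libraries. It rose by 1.32 (standard error 0.12, edgeR adjusted p = 7.51e-06), whereas RBM19 did not pass (log2 fold change -0.18, edgeR adjusted p = 0.0568).

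The highest fold change of any member was that of LINC00504, a lincRNA on chromosome 4 from 14470465 to 14888169 on the minus strand. It was at 19.96, 15.5 and 17.2 CPM in EV and at 139, 143 and 108 CPM in HDAC8 libraries. No library came near the other group. LINC00504 rose by 2.89 (standard error 0.12, edgeR adjusted p = 1.04e-08). The nearest protein-coding gene, CPEB2, which encodes a translational regulator that binds messenger RNA tails, starts 114.3 kb away on the opposite strand and also rose, from 44.4 to 78.5 CPM (log2 fold change 0.82, edgeR adjusted p = 8.49e-07). On the other side BOD1L1 was at 92.2 and 99.3 CPM (log2 fold change 0.11, edgeR adjusted p = 0.339). The median log2 fold change of the 10 protein-coding genes at 10 CPM or more that flank LINC00504 was 0.00.

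At the other end stood AL035665.1, a lincRNA on chromosome 20 from 40696499 to 40698616. It was at 19.9, 21.5 and 17.7 CPM in EV and at 2.31, 3.36 and 2.46 CPM in HDAC8 libraries. It fell by 2.88 (standard error 0.16, edgeR adjusted p = 1.17e-07). TOP1, which encodes a DNA topoisomerase and lies 330.2 kb away, did not pass (log2 fold change 0.07, edgeR adjusted p = 0.58).

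LINC02099 was the next lowest. It was at 17.1, 17.9 and 15.6 CPM in EV and at 3.46, 3.01 and 4.87 CPM in HDAC8 libraries, and fell by 2.15 (standard error 0.17, edgeR adjusted p = 2.41e-06). DUSP4, which encodes a phosphatase of ERK, flanks it at 397.6 kb and passed the adjusted p alone (log2 fold change -0.30, edgeR adjusted p = 0.000392). LINC00698 on chromosome 3 was the most abundant lincRNA to fall apart from MALAT1 and the FP copies described below. It was at 78.3, 79.7 and 81.7 CPM in EV and at 32.7, 32.3 and 35.4 CPM in HDAC8 libraries, and the replicates in each group were close together. LINC00698 fell by 1.26 (standard error 0.06, edgeR adjusted p = 4.62e-08). CADPS, a gene for a protein that primes secretory vesicles, lies 75 kb away and fell from 36.7 to 24.3 CPM (log2 fold change -0.59, edgeR adjusted p = 0.00024).

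**Figure D4:**
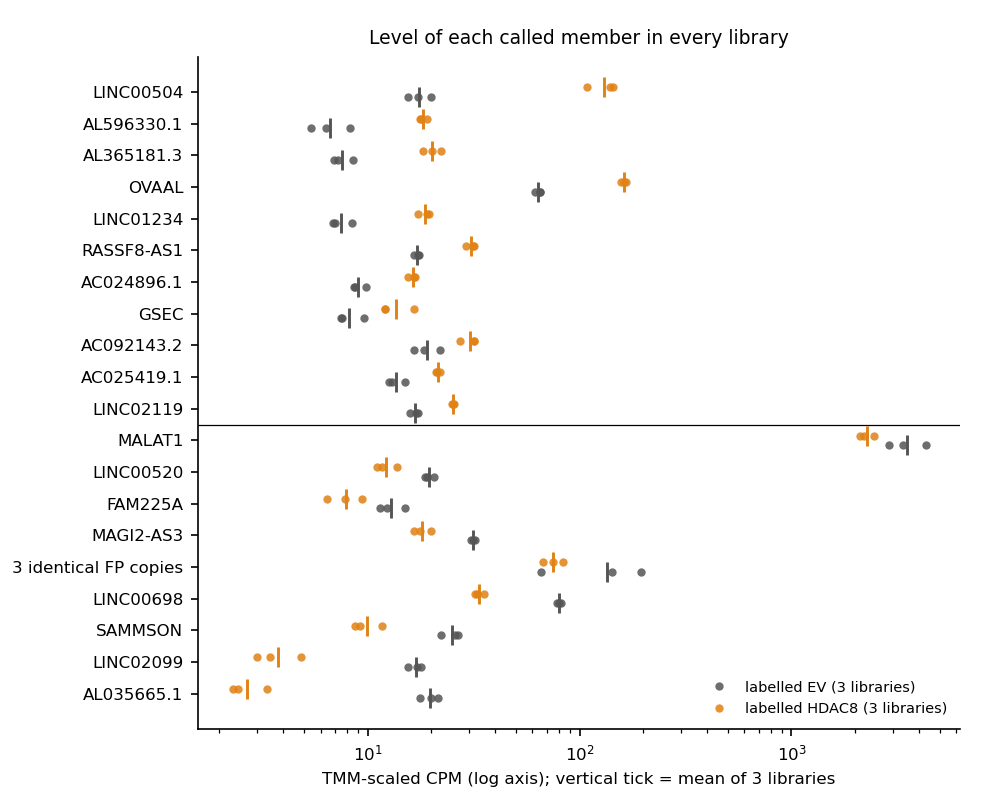
Points give the TMM-scaled CPM of each called member in every library on a log axis, EV-labelled in grey and HDAC8-labelled in orange, with a tick at the mean of 3 libraries. Members above the line were called higher and those below it lower. Groups are apart in every row except that of the 3 identical FP copies, where EV 3 at 65.9 CPM lies under the HDAC8 range of 67.5 to 83.3 CPM and the other EV libraries lie above it.

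Of the 6 antisense members called higher, 2 lie in the same region of chromosome 12. RASSF8-AS1, which runs from the start of RASSF8 in the other direction (25936683 to 25959765, minus strand), was at 16.6, 17.4 and 17.3 CPM in EV and at 31.9, 31.4 and 29.0 CPM in HDAC8 libraries. It rose by 0.85 (standard error 0.08, edgeR adjusted p = 1.15e-05). AC024896.1 (26971586 to 26979582, plus strand), within TM7SF3, was at 9.84, 8.58 and 8.71 CPM in EV and at 16.7, 15.6 and 16.6 CPM in HDAC8 libraries. It rose by 0.85 (standard error 0.11, edgeR adjusted p = 0.000139).

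Of its exon bases 41.6% lie opposite exons of TM7SF3. The coding genes around this pair rose as well. RASSF8 rose from 247.7 to 500.0 CPM (log2 fold change 1.01, edgeR adjusted p = 2.78e-08), TM7SF3 had a log2 fold change of 1.08, FGFR1OP2 of 0.90 and MED21 of 1.22. From PLEKHA5 to BICD1, a stretch of 13.3 Mb on chromosome 12 (19129669 to 32383633) whose ends were set after the values were seen, 33 of 35 protein-coding genes at 10 CPM or more were called higher and 0 lower, and all 35 had a log2 fold change above 0. Their median log2 fold change was 1.04 and BHLHE41 was lowest at 0.31. Of the 10 genes before the stretch 0 were higher and 2 lower (median -0.12), and of the 10 genes after it 0 were called (median -0.02). The genes BICD1 and FGD4, neighbours at its right end, had log2 fold changes of 0.59 and -0.01. The stretch also holds 17 tested genes of the lncRNA types, of which 9 were higher and 0 lower. Whether the number of gene copies differed between the cells was not tested. Outside the stretch 9 members were called higher and 11 lower.

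**Figure D5:**
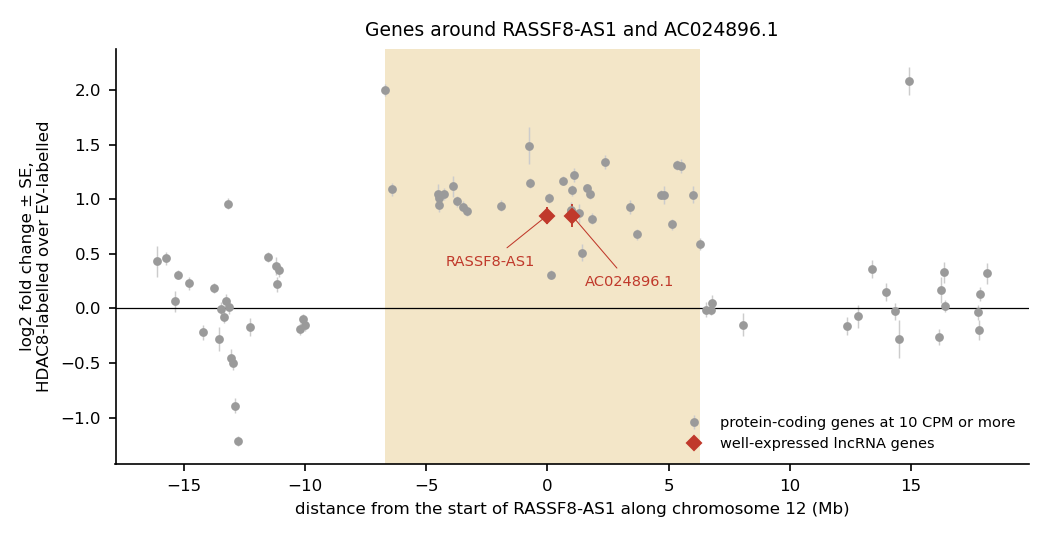
Log2 fold change with its standard error against distance in Mb from the start of RASSF8-AS1 on chromosome 12, for protein-coding genes at 10 CPM or more (grey) and members (red). Shading marks the stretch from PLEKHA5 to BICD1, in which the grey points have a median of 1.04, while the 10 genes on either side have medians of -0.12 and -0.02.

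The other called members had surroundings without such a shift. The 10 flanking protein-coding genes of each, 9 for the FP copies, had median log2 fold changes between -0.12 and 0.34. The highest of these was at AC092143.2, an antisense RNA on chromosome 16 that overlaps MC1R and TUBB3. MC1R is the melanocyte receptor for melanocortin, and 91.3% of the exon bases of AC092143.2 lie opposite coding-gene exons. The strand setting of the counting is not given in the sources used here, so its reads cannot be told apart from those of the overlapping genes. AC092143.2 was at 22.01, 16.5 and 18.4 CPM in EV and at 27.3, 31.7 and 31.9 CPM in HDAC8 libraries, and rose by 0.67 (standard error 0.11, edgeR adjusted p = 0.00093). MC1R had a log2 fold change of 0.53 (edgeR adjusted p = 0.000175) and TUBB3 of 0.43 (edgeR adjusted p = 0.00024), both below the fold threshold. Without EV 2 and HDAC8 3 the log2 fold change of AC092143.2 was 0.54 and the call was lost.

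Antisense members did not all move with the gene they oppose. AL365181.3, on chromosome 1 from 156641666 to 156644887 within BCAN, was at 7.29, 6.91 and 8.504 CPM in EV and at 18.2, 22.2 and 20.1 CPM in HDAC8 libraries. It rose by 1.41 (standard error 0.12, edgeR adjusted p = 5.68e-06). BCAN encodes brevican, a proteoglycan of the neural extracellular matrix, and fell from 83.3 to 27.1 CPM (log2 fold change -1.61, edgeR adjusted p = 2.05e-08). NES on the other side, which encodes the intermediate filament nestin of neural stem cells, rose from 5.49 to 9.47 CPM (log2 fold change 0.79, edgeR adjusted p = 0.00529).

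AL596330.1, named CNIH3-AS1 in GENCODE 44, was at 5.39, 6.37 and 8.26 CPM in EV and at 17.9, 19.1 and 17.8 CPM in HDAC8 libraries. It rose by 1.45 (standard error 0.14, edgeR adjusted p = 2.16e-05), and CNIH3, which encodes an AMPA receptor auxiliary protein, had a log2 fold change of 0.48 (edgeR adjusted p = 0.00175). GSEC, an RNA with G-quadruplex sequences that overlaps DCPS and starts 53 bases from ST3GAL4, each on the opposite strand, was at 9.61, 7.54 and 7.49 CPM in EV and at 12.2, 12.1 and 16.5 CPM in HDAC8 libraries. It rose by 0.73 (standard error 0.16, edgeR adjusted p = 0.00551). Without HDAC8 3 its log2 fold change was 0.56, and without both EV 2 and HDAC8 3 it was 0.51, and the call was lost in each.

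AC025419.1 (MSRB3-AS1 in GENCODE 44) and AC090673.1 (HMGA2-AS1) lie on chromosome 12 near each other. AC025419.1 was at 15, 12.7 and 13.1 CPM in EV and at 21.3, 21.1 and 21.9 CPM in HDAC8 libraries. It rose by 0.66 (standard error 0.09, edgeR adjusted p = 0.000372), while MSRB3, which it overlaps, had a log2 fold change of -0.31 (edgeR adjusted p = 0.0231). HMGA2, 182.1 kb from it, encodes a chromatin protein of embryonic and tumour cells and fell from 145.4 to 71.9 CPM (log2 fold change -1.02, edgeR adjusted p = 9.39e-08). AC090673.1, antisense in HMGA2, was at 13.3, 23.9 and 13.6 CPM in EV and at 7.03, 10.02 and 13.7 CPM in HDAC8 libraries. Its groups overlapped and it did not pass (log2 fold change -0.73, edgeR adjusted p = 0.0595).

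Over all members, 157 had a tested protein-coding neighbour on the same chromosome, and 95 overlapped it. Of the 11 members called higher, the neighbour was higher for 3 (CPEB2, RASSF8 and TM7SF3), lower for 1 (BCAN) and not called for 7. RASSF8 and TM7SF3 lie in the chromosome 12 stretch. Of the 11 called lower, 0 neighbours were higher, 2 were lower, CADPS among them, and 9 were not called. The 3 FP copies with identical counts are among these 11 and share 1 neighbour. Of the 135 others, 3 neighbours were higher and 5 lower. Pearson's r between the log2 fold changes of member and neighbour was 0.27 across the 157 genes and 0.15 across the 135 not called. The genes share libraries and, where they overlap, possibly reads, so r is given as a description.

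The remaining called members are LINC02119, MAGI2-AS3 and FAM225A. LINC02119 on chromosome 5 was at 17.4, 15.8 and 16.9 CPM in EV and at 25.4, 25.6 and 24.96 CPM in HDAC8 libraries. It rose by 0.60 (standard error 0.08, edgeR adjusted p = 0.000221), just past the fold threshold, and was named after its values were seen. Its log2 fold change ranged from 0.56 to 0.63 over the alternatives, below the threshold without EV 2 and without both EV 2 and HDAC8 3. MAGI2-AS3, which starts beside MAGI2, was at 31.5, 32.2 and 30.8 CPM in EV and at 19.8, 16.6 and 17.6 CPM in HDAC8 libraries. It fell by 0.80 (standard error 0.09, edgeR adjusted p = 3.48e-05), while MAGI2, a scaffold protein gene, had a log2 fold change of -0.13 (edgeR adjusted p = 0.64). FAM225A was at 14.95, 11.4 and 12.3 CPM in EV and at 7.84, 6.42 and 9.40 CPM in HDAC8 libraries. It fell by 0.71 (standard error 0.16, edgeR adjusted p = 0.00701), and its counts are uncertain because reads that match a second gene copy, FAM225B, can be divided between them.

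Promoter sequences from the RefSeq annotation of GRCh38.p14 were matched by symbol to 84 of the 161 members, and run from 250 bases before to 50 bases after the start site. The letters TGANTCA, with any base at N, are a loose form of the site of AP-1 (JUN and FOS). On either strand they occurred in 10 of 84 member promoters (11.9%) and in 7.71% of all 35116 promoters. These are shares of the loose form and not of AP-1 sites. CACGTG, an E-box that MITF can bind, occurred in 7 (8.33%) and in 7.26%, and TGACGTCA, the CRE, in 2 (2.38%) and in 1.85%. Among the 8 called members with a sequence, TGANTCA was found in AC025419.1, which rose, and in FAM225A, which fell. Both are shown because they carry the only matches among called members, with the match in capitals.
AC025419.1 (MSRB3-AS1) promoter, chr12:65642323-65642622, minus strand: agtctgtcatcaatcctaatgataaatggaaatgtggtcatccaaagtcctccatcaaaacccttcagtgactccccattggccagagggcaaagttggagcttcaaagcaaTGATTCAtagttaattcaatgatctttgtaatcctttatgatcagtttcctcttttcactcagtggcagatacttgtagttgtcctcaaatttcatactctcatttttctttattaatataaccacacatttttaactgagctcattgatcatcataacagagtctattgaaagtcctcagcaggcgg
FAM225A promoter, chr9:113112646-113112945, plus strand: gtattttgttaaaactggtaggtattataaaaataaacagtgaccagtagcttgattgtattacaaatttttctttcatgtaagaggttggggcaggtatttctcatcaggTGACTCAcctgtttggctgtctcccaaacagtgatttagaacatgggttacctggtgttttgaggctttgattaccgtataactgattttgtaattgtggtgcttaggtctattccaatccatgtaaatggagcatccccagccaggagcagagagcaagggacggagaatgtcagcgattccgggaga
The match starts 138 bases before the start site in AC025419.1 and 139 bases before it in FAM225A. A match is a description of letters and not evidence of binding. Binding of AP-1 or MITF at these promoters was not analysed here.

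Nuclear body and architectural RNAs were 20 symbols, of which 6 were members: MALAT1, NEAT1, NORAD, CYTOR, OIP5-AS1 and RMRP. The list also takes in the cytoplasmic RNAs NORAD and OIP5-AS1, so its values are not those of nuclear RNAs alone. A further 9 were below 10 CPM, 4 were of another type and 1 had no row. MALAT1 was called lower, OIP5-AS1 passed the adjusted p alone in the same direction and the other 4 did not pass. Thus 2 of the 6 passed the adjusted p (33.3%), beside 22.7% of all tested genes. The list's median log2 fold change was -0.09.

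MALAT1, a nuclear RNA concentrated at splicing speckles, was the most abundant member in CPM and in CPM per kilobase. It was at 2875, 4297 and 3356 CPM in EV and at 2209, 2112 and 2465 CPM in HDAC8 libraries. Groups did not overlap, and EV 2 was the highest. MALAT1 fell by 0.63 (standard error 0.11, edgeR adjusted p = 0.00163). Without EV 2 its log2 fold change was -0.46, and without both EV 2 and HDAC8 3 -0.53, both below the fold threshold. Its share of all counts was 0.355% ± 0.080 (SD, n = 3) against 0.224% ± 0.0223, with an exact two-sided permutation p of 0.1, the smallest that 3 against 3 allows.

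NEAT1, transcribed from the locus next to MALAT1, varied widely between replicates. It was at 1020, 1912 and 924 CPM in EV and at 932, 1179 and 2442 CPM in HDAC8 libraries. Groups overlapped, and the log2 fold change of 0.24 had a standard error of 0.32 (edgeR adjusted p = 0.66). HDAC8 3 set its sign: without that library the log2 fold change was -0.29. Without EV 2 the log2 fold change of NEAT1 kept its sign and was 0.64. NORAD, a cytoplasmic RNA that binds Pumilio proteins and is induced by DNA damage, was steady at 522, 503 and 527 CPM in EV and at 534, 528 and 480 CPM in HDAC8 libraries (log2 fold change -0.01, standard error 0.05, edgeR adjusted p = 0.912). OIP5-AS1, a cytoplasmic RNA also called cyrano, was at 376, 354 and 346 CPM in EV and at 318, 310 and 320 CPM in HDAC8 libraries. It passed the adjusted p alone with a log2 fold change of -0.18 (edgeR adjusted p = 0.0123), but not without EV 1 (edgeR adjusted p = 0.07).

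All members together took 1.03%, 1.29% and 1.03% of the counts in EV libraries and 0.933%, 0.921% and 1.15% in HDAC8 libraries. The difference, -0.112 percentage points, had an exact two-sided permutation p of 0.5. Without MALAT1 and NEAT1 the share was 0.629% ± 0.0244 (SD, n = 3) against 0.627% ± 0.0279, a difference of -0.00215 percentage points.

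Per kilobase of exon, MALAT1 stood at 277 CPM, and its lowest library at 202 lay above the highest of AC125611.3 at 179. The following members were AC125611.3 at 144, the 3 FP copies at 114, NORAD at 95.5, AC093484.3 at 86.9, SNHG16 at 85.5, AL355075.4 at 77.5 and NEAT1 at 61.6 CPM per kilobase. After MALAT1 each range over the 6 libraries overlapped that of the next in order, so the order among these is not settled. Members spanned 285-fold in mean CPM with a median of 18.3, and 15 of them were at 100 CPM or more and 89 below 20. At the threshold, SNHG4, AC026362.1 and LINC01002 lay just inside at 10.2, 10.2 and 10.3 CPM, and TTC28-AS1, WAC-AS1 and AC037459.3 just outside at 9.99, 9.97 and 9.96 CPM.

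Several of the highest per-kilobase values belong to short genes that lie on other genes. AC125611.3 has 97.9% of its 680 exon bases opposite exons of the tubulin gene TUBA1C, and AC093484.3 has 100% opposite the ubiquitin gene UBB. Per the labels the library kit keeps strand, while the Methods name another kit. The strand setting of the counting is not given in the sources used here, so their reads cannot be told apart from those genes. AC125611.3 was at 86.0, 87.4 and 92.4 CPM in EV and at 101.0, 98.6 and 121.4 CPM in HDAC8 libraries and passed the adjusted p alone (log2 fold change 0.27, edgeR adjusted p = 0.0231), which it did in 9 of 12 alternatives (highest adjusted p 0.102, without EV 1). AL355075.4 contains RPPH1, the RNA of ribonuclease P, on its own strand, which makes up 333 of its 638 exon bases. It was at 49.9, 23.2 and 43.9 CPM in EV and at 53.9, 72.0 and 53.5 CPM in HDAC8 libraries, and did not pass (log2 fold change 0.61, edgeR adjusted p = 0.0594).

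FP236383.2, FP671120.3 and FP236383.3 lie on the short arm of chromosome 21, where ribosomal RNA genes are repeated, opposite longer lncRNA genes. Their counts were identical in every library, so they give 1 value. They were at 195.5, 142.4 and 65.9 CPM in EV and at 74.7, 67.5 and 83.3 CPM in HDAC8 libraries. The groups overlapped, and the call (log2 fold change -0.84, standard error 0.27, edgeR adjusted p = 0.0471) held in 3 of 12 alternatives, with adjusted p up to 0.242. FP671120.1 and FP236383.1 also shared identical counts and were not called. Whether reads of ribosomal RNA left after depletion were counted on these genes was not examined, and their part in this difference was not tested.

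snoRNA host RNAs were 32 symbols and 16 members: GAS5, SNHG1, SNHG3, SNHG4, SNHG5, SNHG6, SNHG7, SNHG8, SNHG12, SNHG14, SNHG15, SNHG16, SNHG17, LRRC75A-AS1, ZFAS1 and DANCR. Their introns yield snoRNAs, many but not all of which guide modification of ribosomal RNA. The counts here are those of the host gene, and spliced and unspliced host RNA were not told apart. Of the 16, 0 were called by edgeR or DESeq2, 6 had an unadjusted edgeR p below 0.05 (37.5%, beside 33.7% of all tested genes), and 4 (SNHG5, SNHG8, SNHG14 and ZFAS1) passed the adjusted p alone, all higher (25%, beside 22.7% of all tested genes), so both shares lay near the background. Over 12 alternatives ZFAS1 passed in 12, SNHG8 in 10, SNHG14 in 6 and SNHG5 in 5. The highest adjusted p was 0.0745 for SNHG8 (without EV 1), 0.201 for SNHG14 (without EV 1) and 0.184 for SNHG5 (without EV 3), and with the replicate block it was 0.076 for SNHG14 and 0.06 for SNHG5. Log2 fold changes lay between -0.12 and 0.37 with a median of 0.02.

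ZFAS1, host of the SNORD12 family, was at 72.1, 74.99 and 80.5 CPM in EV and at 105.9, 100.7 and 87.3 CPM in HDAC8 libraries. The groups did not overlap, and its log2 fold change was 0.37 (standard error 0.07, edgeR adjusted p = 0.00381). SNHG8 was at 37.5, 39.3 and 42.1 CPM in EV and at 46.2, 47.4 and 50.1 CPM in HDAC8 libraries (log2 fold change 0.27, edgeR adjusted p = 0.0131). GAS5, named for its accumulation in arrested cells, was at 103.9, 113.9 and 105.0 CPM in EV and at 109.6, 102.2 and 109.2 CPM in HDAC8 libraries. Its groups overlapped (log2 fold change -0.01, edgeR adjusted p = 0.951), and SNHG16, at 510 and 478 CPM on average, did not pass either (log2 fold change -0.09, edgeR adjusted p = 0.203).

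Many snoRNA hosts begin with a run of pyrimidines, the 5′ terminal oligopyrimidine tract that ribosomal protein messenger RNAs also carry. In 4 of 13 host promoters with a RefSeq start (30.8%), 5 or more pyrimidines ran from the start site, against 4 of the 71 other members (5.63%) and 5.17% of all promoters. The 4 are printed to show the tract, from 10 bases before the start site through the first 20 bases of the transcript, with the run in capitals. SNHG16 and SNHG8, whose RefSeq starts carry runs of 0 and 1, follow. The run was counted only from the annotated start base, so a start a few bases away can change it. In the SNHG8 line pyrimidines also stand directly before that base, so these lines do not show that the tract is absent.
ZFAS1, chr20:49278632-49278661, plus strand: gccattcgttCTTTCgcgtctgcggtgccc
SNHG5, chr6:85678714-85678743, minus strand: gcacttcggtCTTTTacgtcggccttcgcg
SNHG12, chr1:28581854-28581883, minus strand: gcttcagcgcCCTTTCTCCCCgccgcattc
SNHG4, chr5:139274091-139274120, plus strand: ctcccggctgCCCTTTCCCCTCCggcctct
SNHG16, chr17:76557754-76557783, plus strand: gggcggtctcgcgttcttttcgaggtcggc
SNHG8, chr4:118278752-118278781, plus strand: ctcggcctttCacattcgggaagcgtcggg
Of the hosts that passed the adjusted p alone, ZFAS1 and SNHG5 have a run of 5, SNHG8 has 1 and SNHG14 was not matched.

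microRNA host RNAs were 26 symbols and 3 members, MIR4435-2HG, MIR3142HG and MIRLET7BHG. Of the 3, 0 passed the adjusted p or an unadjusted edgeR p below 0.05, or were called by DESeq2. Over all tested genes 22.7% passed the adjusted p and 33.7% the unadjusted p. A list of 3 cannot be told apart from these shares. By position in GENCODE 44, 12 members, among them NEAT1 and PVT1, contain a microRNA gene on their own strand. Of the 12, 0 were called, beside 7.52% of all tested genes. Mature sequences in the RefSeq table matched 9 members. MIR3142HG, the precursor of miR-146a, an inhibitor of NF-kB signalling, was at 33.1, 44.5 and 33.4 CPM in EV and at 35.5, 32.03 and 31.3 CPM in HDAC8 libraries (log2 fold change -0.16, edgeR adjusted p = 0.336). MIRLET7BHG, on chromosome 22, was at 17.8, 24.9 and 17.4 CPM in EV and at 13.9, 15.4 and 23.5 CPM in HDAC8 libraries, and its groups overlapped (log2 fold change -0.19, edgeR adjusted p = 0.528). EV 2 was highest in both of these, and HDAC8 3 highest in MIRLET7BHG. The mature sequences, from RefSeq, show which targeting seeds these hosts carry, with the seed (bases 2 to 8) in capitals.
hsa-miR-146a-5p: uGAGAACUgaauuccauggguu
hsa-let-7a-5p: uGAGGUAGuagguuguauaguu
hsa-let-7b-5p: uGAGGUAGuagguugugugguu
let-7a-5p and let-7b-5p share the seed GAGGUAG. Mature microRNAs were not measured here, and a host's level is not that of the microRNA.

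p53 and stress RNAs were 16 symbols, of which NORAD, NEAT1 and GAS5 were members. Of the 3, 0 passed the adjusted p, an unadjusted edgeR p below 0.05 or the DESeq2 call. Over all tested genes 22.7% passed the adjusted p and 33.7% the unadjusted p, so these 3 cannot be told apart from that background. A further 9 were below 10 CPM, 3 had no row and 1 was a second symbol of a listed gene.

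Beyond these lists, members passed the adjusted p alone with changes near the fold threshold. LINC01531 was at 76.3, 103.9 and 87.8 CPM in EV and at 130.1, 125.1 and 144.6 CPM in HDAC8 libraries, with a log2 fold change of 0.58 that lay just under the threshold before rounding (edgeR adjusted p = 0.00103). HAGLR, antisense in the HOXD cluster of developmental genes, was at 17.6, 16.8 and 16.0 CPM in EV and at 21.5, 23.7 and 23.8 CPM in HDAC8 libraries (log2 fold change 0.45, edgeR adjusted p = 0.00279). HOXD3, which it overlaps, averaged 0.677 CPM in EV and 0.641 CPM in HDAC8 libraries and had a log2 fold change of -0.07 (edgeR adjusted p = 0.937). AC145207.5 had a log2 fold change of -0.57 (edgeR adjusted p = 0.000815). These 3, and AC090673.1 above, were chosen after their values were seen.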

How the data were processed

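RNA was sequenced from 3 SK-MEL-28 libraries labelled EV and 3 labelled HDAC8, grouped by their titles, which match the columns of the deposited table (0 columns could not be mapped). The values are estimated counts for each Ensembl gene, which the authors made with STAR and RSEM and did not normalize. The submitters' processing notes also name Trimmomatic, DESeq2 and GRCh38. RSEM divides reads that match several genes, so 103 of the 161 members have counts that are not whole, and these members and overlapping or copied genes are uncertain. Per the labels, RNA came from an Aurum kit, ribosomal RNA was depleted and libraries were directional (NEBNext Ultra II), whereas the Methods name another extraction and library kit. The depth was 20850018 to 29822917 counts, which sets the precision. A second deposited table of fold changes and p-values from the authors was not used.

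Counts were rounded and tested with edgeR 4.0.16 under R 4.3.3 (TMM scaling after filterByExpr, glmQLFit, glmQLFTest, no block) over 16195 genes, with Benjamini-Hochberg adjustment. CPM are TMM-scaled, while the rule used counts over column totals. Each standard error is the size of the log2 fold change over the root of its F statistic. Positions are from GENCODE 44 and matched by Ensembl identifier. Groups were compared by the exact two-sided permutation test for shares of counts. The scripts were tested on simulated counts. Alternatives were DESeq2 1.42.0, upper-quartile scaling, other filters and thresholds, the replicate block and libraries left out. The members and lists were chosen with earlier results of these data known. Named genes were list members, the 10 highest and 10 lowest called, the 10 highest per kilobase and the 3 on each side of 10 CPM, with flanking genes and those said to be chosen later beside them. Replicate numbers did not pair the libraries (correlations of deviations of -0.0418, -0.107 and -0.0835). Values of some neighbouring genes are not reported here.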

Additional observations from a re-analysis of the deposited data

How the results depend on the processing

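Of 51 named members, 21 were called, 6 lost the call under some alternative, 1 (AL355075.4) gained one and 0 of the called reversed. Among the named members that were not called, the sign changed 26 times over the alternatives, 1 of them for NEAT1. The 6 were MALAT1, GSEC, AC092143.2 and the 3 FP copies, and LINC02119, which no list names, lost it as well. Members called higher numbered 11 with DESeq2, and called lower 8, and the counts were 12 and 9 with the replicate block, whose numbers did not pair the libraries. With each library left out in turn, members called higher ranged from 10 to 12 and called lower from 8 to 11. A log2 fold threshold of 1 left 5 higher and 4 lower, and no fold threshold gave 29 and 17. A minimum mean of 5 CPM gave 27 higher and 21 lower in a larger set, and one of 20 CPM 5 and 6 in a smaller one. The following were chosen after seeing the data. Members that overlap no tested protein-coding gene, with the 95 that do left out, gave 4 higher and 10 lower. Without EV 2 and HDAC8 3 the counts were 10 and 9, and outside the chromosome 12 stretch 9 and 11. With no fold threshold the share over all tested genes was 22.7%. For the other alternatives that share is not given, so their counts have no background beside them. The median of the members lay between -0.0348 and 0.0392 with 1 library left out, and the difference in share of counts between -0.187 and -0.0257. Depth limits little here, since the lowest member count was 57. The number of libraries, 3 in each group, limits the exact test, which cannot go below 0.1.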

Other observations

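Of the genes of the same types below 10 CPM, 1744 were tested, and 77 were higher and 41 lower in the libraries labelled HDAC8 (6.77%). Some were counted in 1 group only. PURPL, a p53-induced lncRNA on chromosome 5, was at 0 CPM in the 3 EV libraries and at 0.475, 0.691 and 0.776 CPM in the HDAC8 libraries. AC109588.1 was at 0 CPM in the EV libraries and at 3.06, 2.22 and 2.97 CPM in the HDAC8 libraries, and AC021092.1 was at 0 CPM and at 2.85, 2.76 and 2.80 CPM. In the other direction, AL669942.1 was at 0.511, 0.587 and 0.488 CPM in the EV libraries and at 0 CPM in the HDAC8 libraries. For these 4 genes a count of 0 allows up to 0.101 to 0.144 CPM. GNAS-AS1, antisense in the imprinted GNAS locus, was at 1.07, 0.587 and 1.14 CPM in EV and at 0.102, 0.296 and 0 CPM in HDAC8 libraries, and was called lower (edgeR adjusted p = 0.0176). These 5 genes were chosen after their values were seen.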
